A study of Mus musculus with 6 samples.

Results

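Tet1, Tet2 and Tet3 encode the ten-eleven translocation dioxygenases. The 3 genes were followed here through every CpG position that the 6 libraries listed within 5 kb of each annotated gene on GRCm38, where Tet1 lies at chr10:62804570-62887469, Tet2 at chr3:133463677-133545136 and Tet3 at chr6:83362373-83457208. These windows held 634 of the 2029165 positions listed in any library, 175 at Tet1, 135 at Tet2 and 324 at Tet3. A position is a cytosine of a CpG on 1 strand. Of the 634, 508 had at least 10 reads in all 6 libraries, 128 at Tet1, 108 at Tet2 and 272 at Tet3, and the levels below rest on these shared positions. All 3 genes lie on the minus strand in the RefSeq promoter table, so each gene starts at its higher coordinate.

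TET enzymes oxidise 5-methylcytosine to 5-hydroxymethylcytosine and on to forms that base excision repair can replace with unmodified cytosine, using oxygen, iron and 2-oxoglutarate. Tet1 and Tet3 carry a CXXC domain that binds unmethylated CpGs, while Tet2 lost this domain in evolution and works with separate CXXC proteins. In germinal centres, where B cells divide quickly and mutate their antibody genes, TET2 is known as a tumour suppressor that is often mutated in human lymphoma.

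The mice were C57BL/6, and DNA came from germinal centre B cells of the spleen, with 3 libraries of the Tet2 knockout genotype (Tet2 KO) and 3 libraries of the Tet2 wild-type genotype (Tet2 WT). The labels give no age, sex or immunisation, no design of the knockout allele, and nothing on whether animals were pooled. Methylation was read by enhanced reduced representation bisulfite sequencing. Here the enzyme MspI cuts at CCGG and the fragments are bisulfite-converted before sequencing, so that reads gather where CpGs are dense. Bisulfite does not separate 5-methylcytosine from 5-hydroxymethylcytosine, and each level is the share of reads with either.

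The deposited tables held 180397494 to 195582108 reads over CpGs in KO libraries and 174375503 to 203863392 in WT libraries. Over all shared positions the mean level was 33.6% to 33.9% in KO libraries and 32.5% to 33.2% in WT libraries, so the 2 groups did not overlap genome-wide. As a check of the cell type, Cd79a and Cd79b, the signalling chains of the B cell receptor, averaged 0.331% and 0.303% in KO libraries and 1.35% and 0.246% in WT libraries. The 3 covered myeloid marker genes of 4 listed averaged 87.7% to 89.0% in KO libraries and 80.6% to 86.0% in WT libraries. Over the 6 B cell markers the mean was 42.6% to 44.7% in KO libraries and 39.5% to 41.6% in WT libraries, with Ms4a1, Blk and Cd22 above 60% in both groups, and over 5 covered T cell markers of 6 listed it was 46.1% ± 0.883 in KO and 45.8% ± 1.2 in WT libraries (SD, n = 3 each). Cd3d, a T cell receptor chain, also lay low, at 0.40% in KO and 1.26% in WT libraries, so the markers did not sort by cell type on methylation alone. Their part in the results below was not tested.

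Tet2, the targeted gene, was examined first for the knockout itself. At 6 positions from 133486189 to 133486297 on chromosome 3, a stretch of 109 bp that lies 58.8 to 58.9 kb inside the gene, each WT library had 32 to 168 reads and no KO library listed the position, which leaves it at most 9 reads. The 3 forward-strand positions carried 168, 114 and 75 reads in WT replicates 1, 2 and 3 at the first, 155, 113 and 69 at the second, and 166, 111 and 76 at the third. The 3 reverse-strand positions carried 101, 43 and 62, followed by 102, 32 and 61 and by 104, 33 and 62. Relative to each library's mean coverage over shared positions, the 6 positions averaged at most 0.0684, 0.0732 and 0.0740 in KO replicates 1, 2 and 3, against 1.11, 0.648 and 0.493 in WT replicates 1, 2 and 3. That the groups do not overlap follows from how the positions were chosen, as listed in every WT and no KO library. As a description, coverage of the stretch was at least 10.4-fold lower in KO libraries, with bounds of 7.32-fold to 13.7-fold at single positions.

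Positions as deep with that pattern were few. Over the genome 0.0857% of listed positions were listed in all 3 KO libraries and no WT library, and 0.0897% in all 3 WT libraries and no KO library. Positions with at least 32 reads in each library of their group, as deep as those of Tet2, numbered 246 for KO-only and 18 for WT-only positions. These 18 fell into 12 runs with gaps of at most 200 bp, and the Tet2 stretch was the 1 such run with 6 or more positions. Both limits, 32 reads and 6 positions, are those of the Tet2 stretch itself. At any depth, WT-only positions formed 1040 runs, of which 23 had 6 or more positions. Tet2 had 0 KO-only positions, Tet1 had 1 WT-only position, 62866121 on the reverse strand, with 16, 19 and 11 reads in WT replicates 1, 2 and 3, close to the listing minimum, and Tet3 had 0 of either kind.

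The files place the missing part only coarsely, because MspI fragments are sparse inside Tet2. The nearest positions shared by all 6 libraries lie at 133468161, towards the 3′ end, and 133533529, towards the start, 65.4 kb apart. The nearest positions listed in any KO library lie at 133481805 and 133533475, 51.7 kb apart. By that choice of bounds, the 14 positions listed between them can come from WT libraries only, so their origin is no further evidence of a missing part. Of these 14, 8 were listed in a single WT library with at most 21 reads, so they add little. In WT libraries the 6 positions were nearly fully methylated, at 96.0%, 94.7% and 93.3% in replicates 1, 2 and 3, which is 94.6% ± 1.32 (SD, n = 3). Their level in KO cells cannot be read, and exons were not annotated in the tables used here.

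On either side of the gap the Tet2 gene was read in every library. Over all 108 shared positions, coverage relative to the library mean was 0.804, 0.800 and 0.865 in KO replicates 1, 2 and 3, against 0.774, 0.885 and 0.913 in WT replicates 1, 2 and 3. The groups overlap, and the KO over WT ratio was 0.959 (exact two-sided permutation test, p = 0.6, n = 3 each). The shared positions fall into 3 runs, where a run is a series of positions at most 1 kb apart. The run at the start of the gene, with 95 positions, had a KO over WT coverage ratio of 0.927, and the run about 11 kb inside the gene, with 7 positions, a ratio of 0.974. The run near the 3′ end, with 6 positions, had relative coverage of 1.11, 1.13 and 1.38 in KO replicates 1, 2 and 3, against 0.846, 0.830 and 0.798 in WT replicates 1, 2 and 3. There every KO library lay above every WT library, a ratio of 1.46 (exact two-sided permutation test, p = 0.1, the smallest that 3 against 3 allows). Among the 95946 runs of 3 or more shared positions in the genome, 7.02% had all KO libraries above all WT libraries in relative coverage and 2.62% had a ratio at least as high. The copy number of this end of the gene was not tested by any other measure.

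**Figure D1:**
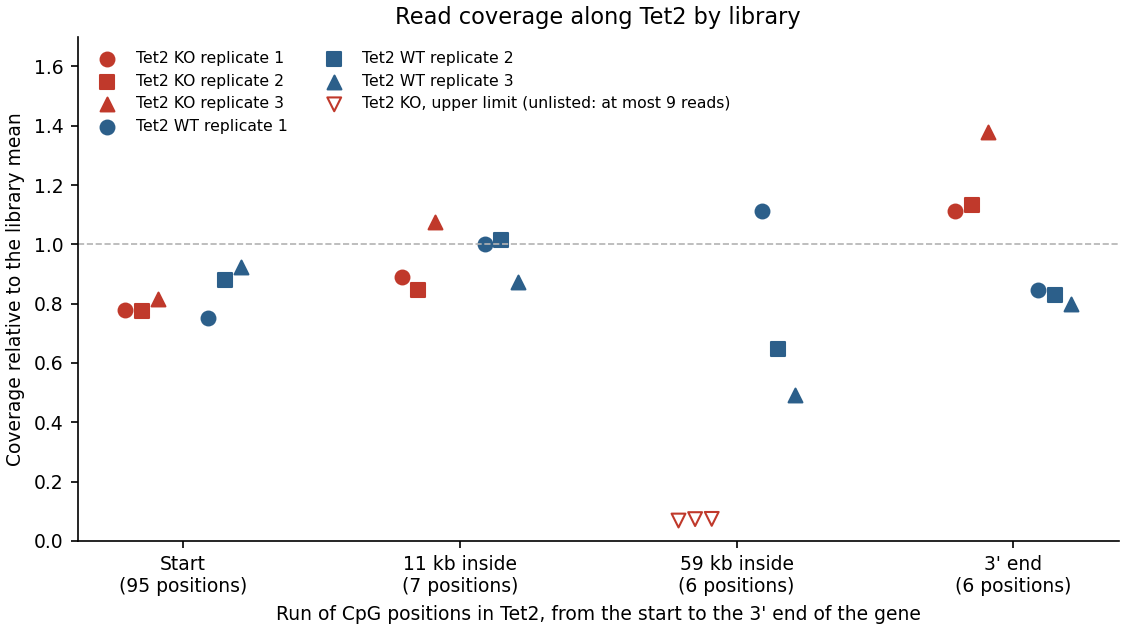
Coverage relative to the library mean (vertical axis) in 4 runs of CpG positions of Tet2, from the start to the 3′ end of the gene, with 1 symbol per library; open triangles are the upper limits for KO libraries at positions they do not list. At the run 59 kb inside the gene the KO limits lie below 0.08 and the WT libraries at 0.493 to 1.11, while KO libraries are covered in the other 3 runs and lie above the WT libraries at the 3′ end.

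The promoter windows are printed here because the assay reads their CpGs densely and because they lie in the methylation-poor parts of each gene. Each is 250 bases before to 50 bases after a transcript start in RefSeq (GRCm38.p6), on the minus strand and read 5′ to 3′. Capitals mark CpGs with at least 1 strand read 10 or more times in all 6 libraries. All 3 genes matched the table. The Tet3 window belongs to a transcript start about 15 kb inside the annotated gene.
Tet1, chr10:62887275-62887574: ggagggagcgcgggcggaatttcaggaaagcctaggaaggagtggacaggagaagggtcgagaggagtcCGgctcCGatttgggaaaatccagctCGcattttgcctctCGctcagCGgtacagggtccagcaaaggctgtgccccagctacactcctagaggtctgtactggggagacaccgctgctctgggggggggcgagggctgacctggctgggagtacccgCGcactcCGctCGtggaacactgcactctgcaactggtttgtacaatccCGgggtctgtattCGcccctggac
Tet2, chr3:133544341-133544640: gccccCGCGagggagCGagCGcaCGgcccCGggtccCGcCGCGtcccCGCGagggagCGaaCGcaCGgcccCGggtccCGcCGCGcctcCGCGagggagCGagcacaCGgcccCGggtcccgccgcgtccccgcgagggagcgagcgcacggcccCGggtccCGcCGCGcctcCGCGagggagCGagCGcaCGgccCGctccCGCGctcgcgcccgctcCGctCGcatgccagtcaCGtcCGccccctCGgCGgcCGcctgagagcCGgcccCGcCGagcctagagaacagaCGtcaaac
Tet3, chr6:83441629-83441928: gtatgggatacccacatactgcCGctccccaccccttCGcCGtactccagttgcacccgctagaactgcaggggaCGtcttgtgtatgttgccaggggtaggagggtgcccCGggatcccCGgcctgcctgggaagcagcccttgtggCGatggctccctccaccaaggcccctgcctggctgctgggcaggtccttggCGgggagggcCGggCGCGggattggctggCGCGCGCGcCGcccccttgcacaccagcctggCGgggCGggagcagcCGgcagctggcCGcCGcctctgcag

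The 3 windows differ in CpG content. The Tet2 window holds 57 CpGs, 46 of them read, and 0.152% of the 32851 promoter windows in the table hold as many, whose median is 7. It contains 4 copies of the 22-base word cacggccccgggtcccgccgcg, spaced 42 bases apart, and no other promoter window in the table has 4 copies. The word was found in the sequence and not chosen beforehand. The Tet1 window holds 17 CpGs, 10 of them read, and the Tet3 window 22, of which 21 were read, numbers that 31.4% and 23.1% of windows reach. The MspI site CCGG, which reads the same on both strands, occurs 2 times in the Tet1 window, 5 times in the Tet2 window and 4 times in the Tet3 window, and 52.8% of all promoter windows hold it.

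All 3 promoter windows were nearly unmethylated in both groups. The 61 shared positions of the Tet2 window averaged 0.0859%, 0.236% and 0.0179% in KO replicates 1, 2 and 3, against 0%, 0.327% and 0.220% in WT replicates 1, 2 and 3. The 0% of WT replicate 1 is a count of 0 in 6225 reads, which allows up to 0.0482%. The groups overlap. The 12 positions of the Tet1 window averaged 2.87%, 3.05% and 4.56% in KO replicates and 6.54%, 1.93% and 1.66% in WT replicates, and the 28 positions of the Tet3 window 2.68%, 2.73% and 2.97% in KO replicates and 2.67%, 3.64% and 3.01% in WT replicates. Neither pair of groups separates, and the means were 3.49% ± 0.930 in KO and 3.38% ± 2.74 in WT libraries for Tet1 and 2.79% ± 0.158 and 3.11% ± 0.490 for Tet3 (SD, n = 3 each). These window means lie below the range of means, 5% to 95%, in which features were tested. Single positions had means of up to 9.96% in the Tet1 window and 23.8% in the Tet3 window. Those within the range were tested as positions, among them 62887465 of Tet1, given below.

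Along the genes, methylation changed from near 0 at the start to above 80% inside. Of the shared positions, 72 of 128 at Tet1, 95 of 108 at Tet2 and 156 of 272 at Tet3 had a 6-library mean under 20%, and 40, 13 and 103 had one over 80%. Tet2 had 0 positions between 20% and 80%, against 16 at Tet1 and 13 at Tet3. Over the genome 60.9% of shared positions lay under 20%, 10.1% between and 29.0% over 80%.

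**Figure D2:**
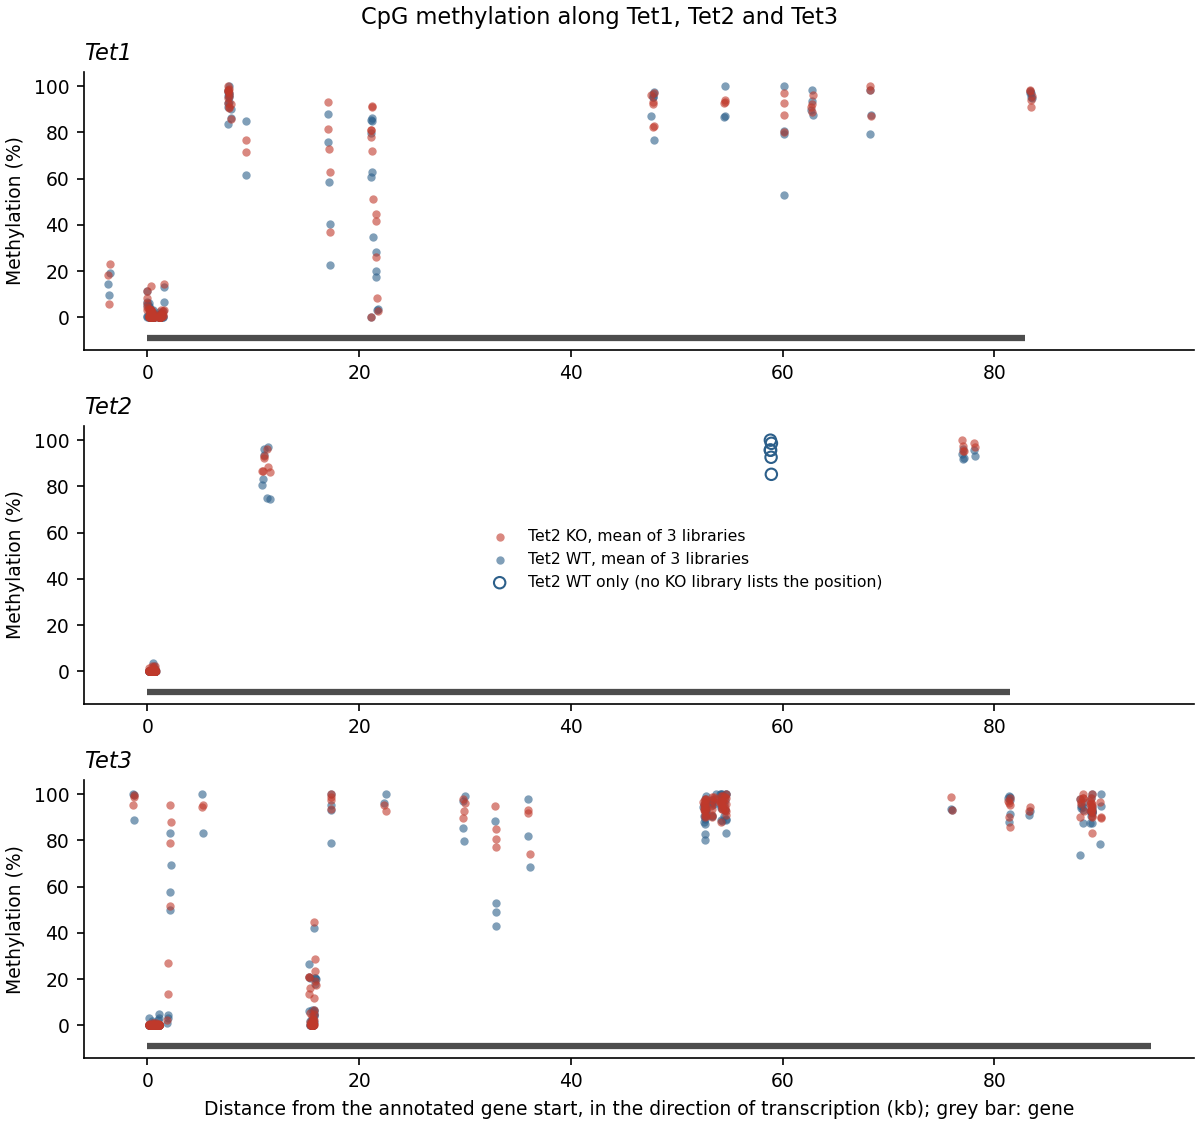
CpG methylation in percent (vertical axis) against the distance in kb from the annotated start in the direction of transcription, with 1 point per shared position and group (mean of 3 libraries each) and the gene as a grey bar. Starts lie near 0% and most inner positions above 80%, the 6 open circles of Tet2 are positions that WT libraries alone list, and Tet1 and Tet3 each have inner stretches in between.

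Averaged over the shared positions of each window, all 3 genes were slightly more methylated in KO libraries. Tet1 averaged 37.9%, 38.9% and 37.3% in KO replicates 1, 2 and 3, against 34.6%, 37.3% and 36.2% in WT replicates 1, 2 and 3. Tet2 averaged 11.6%, 11.3% and 11.2% in KO replicates, against 10.7%, 10.8% and 11.1% in WT replicates. Tet3 averaged 39.0%, 39.0% and 39.2% in KO replicates, against 37.0%, 38.5% and 37.8% in WT replicates. Every KO library lay above every WT library at each gene, by a mean of 2.02 percentage points at Tet1, 0.471 at Tet2 and 1.33 at Tet3. The exact two-sided permutation p was 0.1 for each of these 3 comparisons, the smallest that 3 against 3 allows, so none can pass 0.05. This separation was common, since 25.4% of 17063 gene windows showed it and 1.59% showed the opposite.

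When reads were instead added over the window and tested with a quasi-binomial model moderated across all 13449 gene windows, no Tet gene was called. A call needed an adjusted p under 0.05 and group means at least 10 points apart, and 0% of windows reached it, with 1658 of 13449 at an unadjusted p under 0.05 and 0 called by limma. Tet2 held 14.2%, 14.0% and 15.8% in KO replicates, against 12.8%, 11.4% and 10.3% in WT replicates, a difference of 3.16 points with no overlap (quasi-binomial test, p = 0.0130, Benjamini-Hochberg adjusted p = 0.295). Of all windows, 12.3% had an unadjusted p under 0.05 and 15.8% had all KO libraries above all WT libraries. Read coverage of the methylated 3′ run of Tet2 also differed between the groups, as given above, and with positions weighted equally the difference was 0.471 points. Tet1 differed by 2.27 points (25.2% ± 0.489 in KO, 22.9% ± 2.32 in WT; adjusted p = 0.502) and Tet3 by 2.30 points (31.9% ± 2.86 in KO, 29.6% ± 2.52 in WT; adjusted p = 0.581, same model, SD, n = 3 each), with overlap in both. Leaving out 1 library moved the Tet1 value to between 1.34 (without WT replicate 3) and 3.57 (without WT replicate 1) and the Tet3 value to between 1.09 (without KO replicate 2) and 3.88 (without KO replicate 1).

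Smaller features gave 2 called positions, both in Tet3. Of the 23 tested 1 kb tiles with at least 3 shared positions in the Tet windows, 0 were called by the quasi-binomial model, 0 by limma, and 4 had an unadjusted p under 0.05, against 0.687% of all 83114 tiles called and 11.5% at that p. The KO mean was higher in 19 of the 23 tiles, against 64% of all tiles, and every KO library lay above every WT library in 5, against 12.7% of all. None of the 23 had every KO library below every WT library, against 3.54% of all. The median KO minus WT difference was 4.04 points over the 23 tiles and 1.28 over all. Of 135 tested positions in the Tet windows, 2 were called higher in KO and 0 lower, against 0.284% and 0.0105% of all 525213 tested, and 17 had an unadjusted p under 0.05, against 8.7%. All KO libraries lay above all WT libraries at 14 of the 135 and below them at 3, against 8.3% and 4% of all. Neighbouring positions are read on the same fragments and are not independent.

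Tet1, which is best known in mouse for its role in embryonic stem cells and germ cells, kept a methylation-poor start in both groups. Its 67 shared positions from 62885904 to 62887505 on chromosome 10, from 1.57 kb inside the gene to just before it, averaged 1.45%, 1.72% and 1.76% in KO replicates, against 2.01%, 1.32% and 1.08% in WT replicates. The groups overlap. Only 1 tested position there separated them, 62887465 on the reverse strand, chosen after its values were seen. This position lies 4 bases inside the annotated start, within the promoter window printed above. It had 7 methylated reads of 81, 17 of 99 and 9 of 100 in KO replicates 1, 2 and 3, which is 8.64%, 17.2% and 9.0%, against 0 of 85, 0 of 131 and 0 of 97 in WT replicates 1, 2 and 3. A count of 0 there allows up to 3.53%, 2.29% and 3.09%. The difference of 11.6 points was not called (quasi-binomial test, p = 0.00366, adjusted p = 0.250). Another position of this run, 62887134 on the forward strand, also chosen after its values were seen, rests on 1 library, with 36 methylated reads of 89 in KO replicate 2 and 0 of 110 and 0 of 72 in KO replicates 1 and 3.

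In the Tet1 window, which includes 5 kb on either side of the gene, the partly methylated positions differed more than the highly methylated ones. The 16 positions with means of 20% to 80% averaged 60.0%, 65.7% and 59.9% in KO replicates, against 43.5%, 53.5% and 52.3% in WT replicates. The group means lay 12.1 points apart, and 14 of the 16 had a higher KO mean. At 1 of the 16 every KO library lay above every WT library, against 8.3% of all tested positions. The 40 positions above 80% averaged 93.3% ± 1.49 in KO and 92.1% ± 2.85 in WT libraries (SD, n = 3 each), within the spread between replicates. Over the genome, shared positions of 20% to 80% averaged 4.10 points higher in KO, and those above 80% 0.746 points. The KO mean was higher at 62.5% of the genome's positions of 20% to 80% and at 52.5% of those above 80%. At Tet3 the 13 positions of 20% to 80% averaged 52.04%, 54.2% and 54.01% in KO replicates, against 29.5%, 51.0% and 43.9% in WT replicates, 11.9 points apart, with a higher KO mean at 9 of the 13. At 4 of the 13 every KO library lay above every WT library. The 13 include 83424253, 83424294 and 83424295 of the run 33 kb inside the gene, 35.8, 37.8 and 24.4 points higher in KO. Much of the 11.9 points comes from that run, and the 13 were not averaged without it. Many of these positions are neighbours.

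Of the tested Tet1 tiles, the 3 with the largest difference lay about 60, 17 and 21 kb inside the gene. The tile from 62827001 had 90.9%, 93.2% and 84.3% in KO replicates, against 69.8%, 75.8% and 88.9% in WT replicates, 11.3 points apart with overlap (p = 0.0474, adjusted p = 0.427, quasi-binomial test). The tile from 62870001 had 62.8%, 71.3% and 73.7% in KO replicates, against 54.7%, 61.2% and 60.2% in WT replicates, 10.6 points apart without overlap (quasi-binomial test, p = 0.0310, Benjamini-Hochberg adjusted p = 0.366). The tile from 62866001 had 73.3%, 71.0% and 76.2% in KO replicates, against 57.9%, 69.6% and 69.0% in WT replicates, 7.99 points apart without overlap (quasi-binomial test, p = 0.0650, Benjamini-Hochberg adjusted p = 0.476). Without WT replicate 1 that difference was 4.21 points. None passed the test. The last 2 tiles also overlap Gm51805, a lncRNA annotated from 62865670 to 62910643 across the start of Tet1, so their reads cannot be assigned to 1 gene.

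Among single Tet1 positions the largest difference was at 62827323 on the reverse strand, in the first of these tiles. It had 80.6%, 90.5% and 92.0% in KO replicates, against 65.5%, 37.5% and 55.6% in WT replicates, at 18 to 63 reads (34.8 points, adjusted p = 0.358, quasi-binomial test). KO libraries all lay above WT libraries there, but the lowest depth is 18 reads. The next were 62865891 and 62865855 on the reverse strand, 24.5 and 24.4 points higher in KO, where WT replicate 2 overlapped the KO libraries (adjusted p = 0.787 and 0.761).

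Tet2, the member most often mutated in blood cancers, was low at its start and high elsewhere. The 95 positions of the start run, from 133544348 to 133545012, averaged 0.0660%, 0.270% and 0.0505% in KO replicates, against 0%, 0.216% and 0.148% in WT replicates. The groups overlap, and the 0% of WT replicate 1 is 0 of 8534 reads, which allows up to 0.0352%. No difference at the start was detectable at this depth. The 6 positions of the 3′ run, from 133466957 to 133468161, averaged 98.0%, 97.5% and 96.6% in KO replicates, against 93.0%, 94.9% and 93.8% in WT replicates. Every KO library lay above every WT library, by a mean of 3.47 points, as in 12% of the genome's runs of 3 or more positions. The 7 positions 11 kb inside the gene, from 133533529 to 133534282, averaged 93.6%, 86.9% and 89.3% in KO replicates, against 85.9%, 81.9% and 89.3% in WT replicates, 4.19 points apart with overlap.

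Tet2 had 2 tested tiles, both in the inner run. The tile from 133533001 differed by 5.89 points (91.0% ± 6.48 in KO, 85.1% ± 3.77 in WT; adjusted p = 0.546) and that from 133534001 by 1.35 points (89.2% ± 2.10 in KO, 87.8% ± 2.42 in WT; adjusted p = 0.939, quasi-binomial test, SD, n = 3 each). Of its 9 tested positions, the largest differences were at 133533786 on the reverse strand, with 92.2%, 100% and 96.6% in KO replicates and 87.4%, 58.8% and 78.6% in WT replicates, and at 133533529 on the reverse strand, 11.6 points higher in KO. The first separates the groups at 21.3 points but has as few as 17 reads (adjusted p = 0.534), and the second has an adjusted p of 0.677. At 133533720 on the forward strand KO replicate 2 stood at 70.0% and the other KO libraries at 97.3% and 98.3%, against 92.3%, 99.3% and 99.0% in WT replicates. The difference of -8.31 points there turns to 0.969 points without KO replicate 2.

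Tet3, the enzyme known for oxidising the paternal genome in the mouse zygote, held the called positions. They lie about 33 kb inside the gene, at 83424294 and 83424253 on the forward strand of chromosome 6, 41 bp apart with nearly equal read counts in each library. At 83424294 the level was 81.0%, 85.4% and 76.1% in KO replicates 1, 2 and 3, against 6.76%, 47.3% and 74.9% in WT replicates 1, 2 and 3, at 123 to 224 reads. At 83424253 it was 82.7%, 82.9% and 89.4% in KO replicates, against 8.72%, 67.6% and 71.4% in WT replicates, at 123 to 225 reads. All KO libraries lay above all WT libraries at both, by 37.8 points (adjusted p = 0.0357) and 35.8 points (adjusted p = 0.0396, quasi-binomial test with Benjamini-Hochberg adjustment over 525213 positions). The WT libraries spread far more than the KO libraries, with SDs of 34.3 and 35.1 points against 4.65 and 3.79 in KO. Without WT replicate 1 the differences fell to 19.7 and 15.5 points and neither was called (adjusted p = 0.422 and 0.420). Leaving out KO replicate 1, 2 or 3 or WT replicate 2 also ended both calls, and leaving out WT replicate 3 ended that of 83424253 (adjusted p = 0.0673). With the dispersion unmoderated, neither was called (adjusted p = 0.798 and 0.802), nor with limma (0.769 and 0.766).

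The other strand and the other positions of this run were read on other reads. The reverse-strand cytosine of the same CpG, 83424295, had 78.9%, 77.0% and 75.8% in KO replicates, against 46.4%, 62.8% and 49.3% in WT replicates, at 110 to 190 reads. It separates the groups by 24.4 points and WT replicate 1 does not stand apart there (p = 0.00251, adjusted p = 0.213, quasi-binomial test). At 83424336, also on the reverse strand, KO libraries held 95.7%, 94.8% and 94.2% and WT libraries 76.4%, 100% and 89.5%, with overlap. Adding the 4 positions, the tile from 83424001 had 84.6%, 85.1% and 83.9% in KO replicates, against 30.6%, 65.6% and 71.6% in WT replicates. That is 28.6 points without overlap, the largest of the 23 Tet tiles, and it was not called (quasi-binomial test, p = 0.00181, adjusted p = 0.106). Without WT replicate 1 it was 15.9 points, and without WT replicate 3 it was 36.4 points and called (adjusted p = 0.0305). Over the genome, 0.223% of the runs of 3 or more positions had a mean difference at least as high as the 26.1 points of this one.

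**Figure D3:**
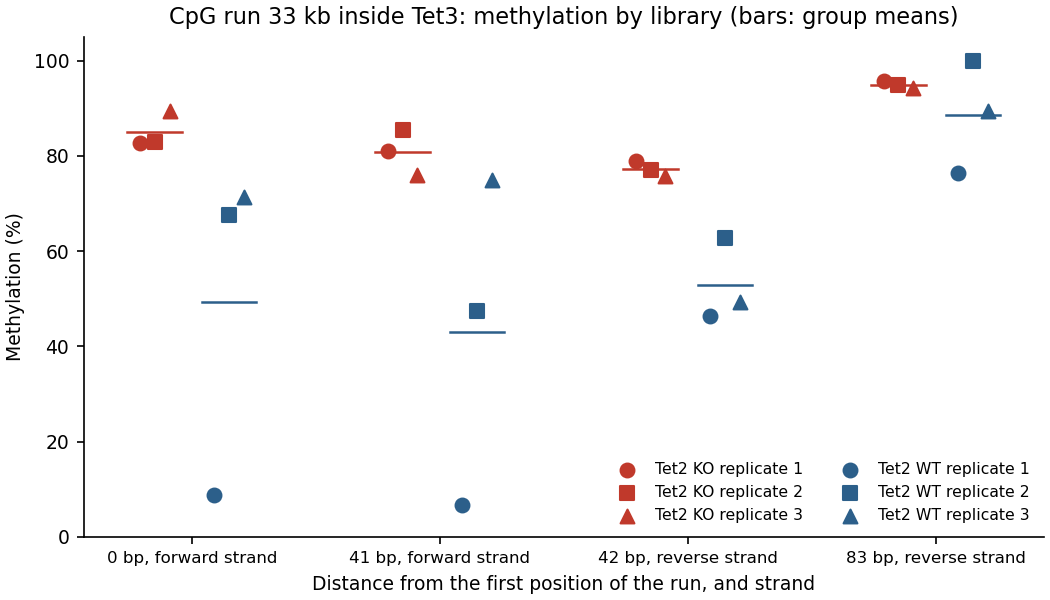
Methylation in percent (vertical axis) at the 4 CpG positions of the run 33 kb inside Tet3, by distance from the first and strand, with 1 symbol per library and bars for group means. KO libraries sit between 75.8% and 95.7%, and WT replicate 1 lies at 8.72% and 6.76% on the forward strand but at 46.4% and 76.4% on the reverse strand.

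Tet3 had 2 methylation-poor runs. One covers the annotated start, with 112 positions from 83455017 to 83457052, and averaged 3.31%, 3.15% and 3.31% in KO replicates, against 2.35%, 3.06% and 2.32% in WT replicates. KO libraries all lay above WT libraries, by 0.678 points, and 12% of the genome's runs separate that way. The largest tested differences of this run lie at its inner edge, about 2 kb inside the gene, where the tile from 83455001 differed by 4.77 points with overlap (24.5% ± 4.54 in KO, 19.7% ± 8.64 in WT, SD, n = 3 each; adjusted p = 0.693) and position 83455058 on the forward strand by 28.7 points without overlap (74.1%, 78.3% and 83.8% in KO, 70.6%, 29.4% and 50% in WT, 23 to 37 reads; adjusted p = 0.656, quasi-binomial test). The tile difference was 1.2 points without WT replicate 3 and 9.58 without WT replicate 2. With reads added in place of an equal weight for each position, the run held 0.869%, 0.972% and 1.21% in KO and 0.815%, 1.27% and 0.523% in WT libraries, with overlap. The other run has 54 positions from 83441309 to 83441930, around the promoter window printed above, and averaged 4.61%, 4.94% and 4.97% in KO replicates, against 3.47%, 5.57% and 5.0% in WT replicates, with overlap. B230319C09Rik, a lncRNA on the plus strand, starts at 83441755, and its own promoter window shares 176 bases with that of Tet3, so this low run cannot be given to either transcript.

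Of the 14 runs of the Tet3 window, 11 had a 6-library mean above 80%, among them the run from 83458457 to 83458520 before the gene start. The 103 of its 272 positions with a 6-library mean above 80% averaged 94.8%, 94.9% and 95.2% in KO replicates, against 92.8%, 94.0% and 92.8% in WT replicates. All KO libraries lay above all WT libraries, at 95% ± 0.192 in KO and 93.2% ± 0.698 in WT libraries (SD, n = 3 each). How often like sets of positions separate was not computed, and 25.4% of gene windows with equally weighted positions separate this way. The 26 positions near the 3′ end, from 83367144 to 83369162, showed the same order, with 95.1%, 94.5% and 93.8% in KO replicates and 92.6%, 92.5% and 91.6% in WT replicates. Over all 3 genes, 20 of the 24 runs of 3 or more positions had a higher KO mean, and 4 had every KO library above every WT library, against 12% of the genome's runs. None of the 24 had every KO library below every WT library, against 3.43%. A Tet3 run of 2 positions, from 83434710 to 83434865, did, with 94.1% ± 2.96 in KO and 98.2% ± 1.57 in WT libraries (SD, n = 3 each). The remaining tile of the 3 with the largest Tet3 difference, from 83439001, differed by 6.35 points with overlap (97.1% ± 2.05 in KO, 90.8% ± 5.93 in WT; adjusted p = 0.570, quasi-binomial test).

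**Figure D4:**
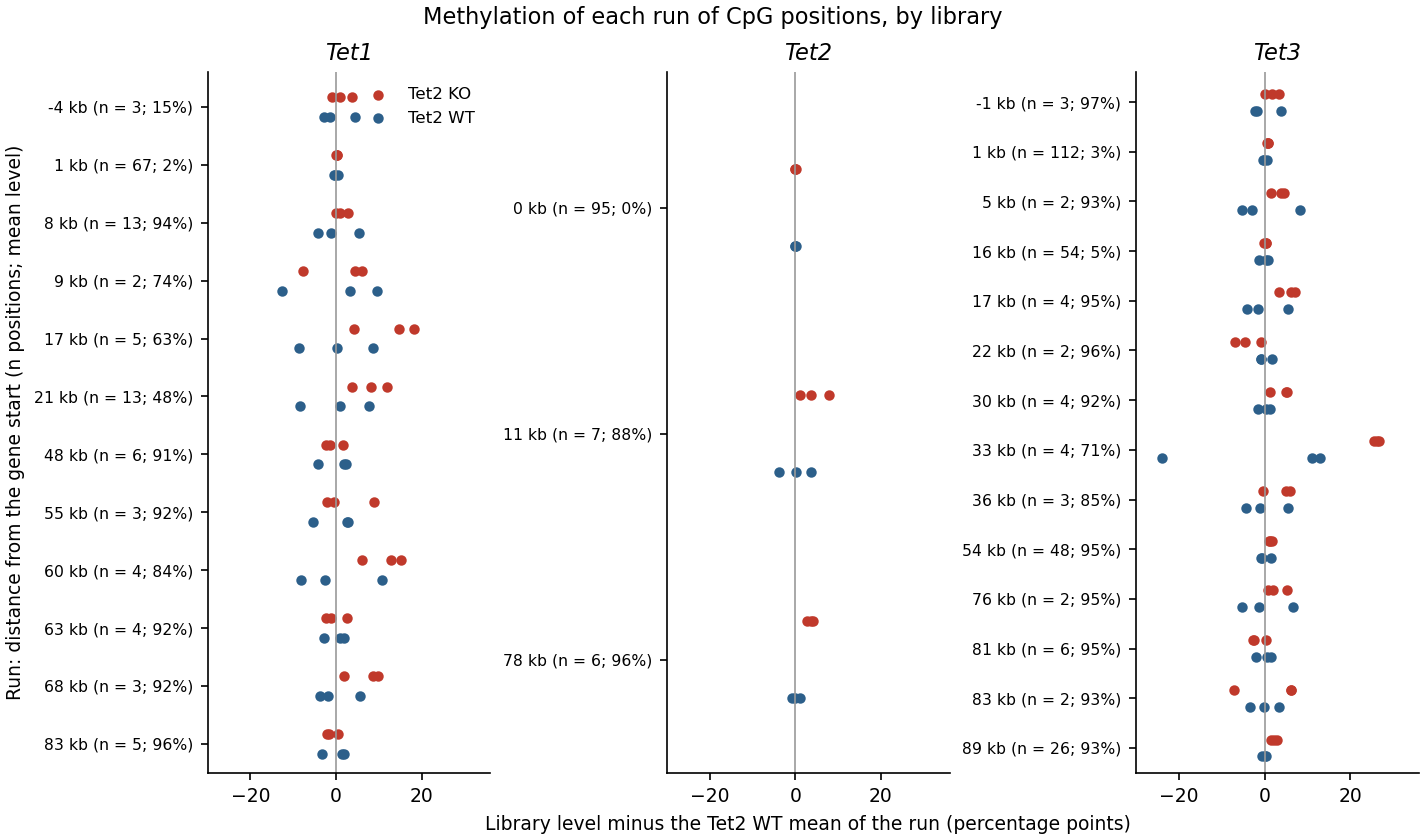
Level of each library minus the WT mean of the run, in percentage points (horizontal axis), for the 29 runs of shared positions ordered by distance from the gene start, KO symbols drawn above WT symbols in each row, with the number of positions and the mean level. Most runs scatter within 10 points, the Tet3 run 33 kb inside the gene has KO libraries about 26 points above the WT mean, and starts with a mean of 0% to 5% show almost no spread.

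None of the genes that work with the TET enzymes was called. Of 24 listed pathway genes, all were covered and 18 had a window mean in the tested range, of which 0 were called by the quasi-binomial model or by limma, as 0% of all windows were. Of the 18, 5 had an unadjusted p under 0.05, against 12.3% of all windows, and 12 (66.7%) had a higher KO mean, against 69.8% of all windows. The median difference was 1.26 points over the 18 and 1.01 over all 13449 windows, and 0 of their 65 tested tiles were called. The largest differences were at Neil3, a DNA glycosylase, and D2hgdh, which degrades D-2-hydroxyglutarate, an inhibitor of TET enzymes. Neil3 had 62.6%, 63.9% and 73.0% in KO replicates, against 57.7%, 45.9% and 55.7% in WT replicates, over 8 positions (13.4 points, adjusted p = 0.404). D2hgdh had 66.8%, 67.4% and 74.4% in KO replicates, against 54.7%, 55.0% and 63.1% in WT replicates (11.9 points, adjusted p = 0.285, quasi-binomial test). Both separate the groups, with KO above WT, as 15.8% of all windows did. Of the 6 tested genes with a lower KO mean, Tdg and Neil2 had every KO library below every WT library, as had 245 of all 13449 windows. These genes are named after their values were seen. Tdg, the glycosylase that removes oxidised cytosines, held 8.23% ± 1.33 in KO and 13.3% ± 3.11 in WT libraries, and Neil2, another glycosylase, 8.49% ± 0.853 in KO and 9.96% ± 0.880 in WT libraries (adjusted p = 0.322 and 0.575, quasi-binomial test, SD, n = 3 each). Cxxc5, a CXXC protein, had the smallest p of the 6 (adjusted p = 0.310, same test). It held 17.4% ± 2.42 in KO and 21.5% ± 1.86 in WT libraries, with overlap. Tiles of these genes did not all share the direction of the window. The KO mean was higher in the 1 tested tile of Tdg, in 1 of 2 of Neil2 and in 7 of 9 of Cxxc5. Reads were added over each window, so positions with more reads weigh more in its level.

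Some other gene windows correlated closely with a Tet window over the libraries. Over the 6 libraries, the windows most like that of Tet1 in read-weighted level were Hunk (Pearson r = 0.999), Nr5a2 (0.997) and Crebl2 (0.993), those most like Tet2 were Zdhhc23 (0.994), Rflnb (0.993) and Fam227a (0.991), and those most like Tet3 were Sdc4 (0.993), Calml4 (0.984) and Ntmt1 (0.982). Among 13449 windows, 253, 439 and 156 had an r over 0.9 with Tet1, Tet2 and Tet3, so the named windows are not alone in this likeness. The 6 libraries share their depth and group across windows, and the part of these in the likeness was not tested.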

How the data were processed

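The 6 deposited files list CpG positions by strand with a coverage count and the percent of C and of T calls, per the file headers. Bismark and GRCm38 are named in the submitters' processing notes, and no version is given in the sources used here. Methylated and unmethylated counts were recovered from the deposited counts and percent values and were whole at 100% of positions, within 0.0006% of the coverage. The lowest deposited coverage was 10 in each library, so an unlisted position has at most 9 reads. Reads of another base, 0.0172% to 0.0189%, were left out. Levels count PCR copies as reads, so limits from a count of 0, set at 3 reads of the total, cover counting error only.

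Single positions, 1 kb tiles with at least 3 shared positions and gene windows (protein-coding RefSeq genes of GRCm38.p6 with 5 kb on either side, at least 5 positions) with a mean of 5% to 95% were tested by a quasi-binomial logistic model. Its Pearson dispersion was moderated as in limma (empirical Bayes), coded in Python 3.11.15 with numpy 2.4.6 and scipy 1.17.1, equal to limma 3.58.1 on test values and tested on simulated data. P-values were adjusted by Benjamini-Hochberg over all tested features. A call needed an adjusted p under 0.05 and group means 10 points apart. Libraries weigh equally in a group mean. Mean levels and coverage were tested by exact permutation, two-sided.

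Replicates are known by their numbers only, so the spread behind each p-value may be technical in part. The genes, lists and tests were chosen with earlier results of these data known. The naming rule took called features, the 3 tiles and 3 positions with the largest difference per gene, positions listed in 1 group only, 3 most alike windows per gene, and called pathway genes or else the 2 with the largest difference. Exons were not analysed here. Alternatives were a higher coverage minimum (20 or 30), unmoderated dispersion, limma on log2 ratios, all covered features, a replicate block, each library left out, other weights and added strands.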

Additional observations from a re-analysis of the deposited data

How the results depend on the processing

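Direction held in all alternatives for the 3 window differences, the 3 mean levels and both coverage ratios, and the Tet2 WT-only count cannot fall below 6 when a library is left out. Calls depended on the model. Called positions at Tet1, Tet2 and Tet3, 2 in the main test, were 0 with unmoderated dispersion, limma or all covered features, and 0 to 1 when 1 library was left out. Called tiles there, 0 in the main test, were 0 to 1 when 1 library was left out. Over all tested features, 571 called tiles became 0 with unmoderated dispersion, 0 with limma and 8 with all covered features, and 124 to 1171 when 1 library was left out. The 1544 called positions became 35, 0 and 207, and 3 to 1226. Called gene windows became 2 with gene bodies alone. When 1 library was left out, the mean level difference was 1.29 to 2.66 points at Tet1, 0.362 to 0.595 at Tet2 and 0.943 to 1.71 at Tet3, and the coverage ratio of the Tet2 3′ run 1.36 to 1.52. Uncalled tiles moved by over 1.5 times, to 1.2 to 9.58 points at Tet3 83455001 (lowest without WT replicate 3, highest without WT replicate 2), 4.21 to 10.03 at Tet1 62866001 (lowest without WT replicate 1, highest without WT replicate 2) and 0.319 to 2.73 at Tet2 133534001 (lowest without KO replicate 1, highest without WT replicate 3). So did Tet2 133533001, to 3.82 to 9.63 points (lowest without KO replicate 1, highest without KO replicate 2). Tet3 83439001 moved to 3.82 to 9.61 points (lowest without WT replicate 3, highest without WT replicate 1). Tet1 62827001 moved to 7.15 to 16.7 points and Tet3 83424001 to 15.9 to 36.4, each lowest without WT replicate 1 and highest without WT replicate 3. The Tet2 window difference of 3.16 points became 0.471 with equal weights, as the weighting itself changes what is averaged. Otherwise the cause was not tested. Tet2 position 133533720, at -8.31 points, reversed to 0.969 without KO replicate 2, its leave-one-out range being -13.2 to 0.969.

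Deviations of same-numbered KO and WT libraries correlated at 0.0179, -0.00163 and 0.00302 over 147768 positions, against -0.0201 to 0.0146 for libraries of unlike number. The labels do not say whether the numbers pair the samples, and these correlations cannot settle it. With the replicate number as a block, 1 Tet tile (Tet3, from 83424001, adjusted p = 0.0199 in the blocked quasi-binomial model), 0 Tet positions (0.614 at 83424294 and 0.603 at 83424253), 919 tiles and 0 positions in all were called, and the sign-flip p of each mean level was 0.25, the smallest 3 pairs allow.

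Some single positions had 10 to 30 reads in a library. A position in fewer than 6 libraries gave no level, Tet2 has only 2 tested tiles, and 3 libraries against 3 cannot pass 0.05 by permutation.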

Other observations

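One CpG of Tet1 was read at different levels on its strands. At 62866308 on the forward strand of chromosome 10, 0 of 54, 0 of 37 and 0 of 41 reads were methylated in KO replicates 1, 2 and 3, and 0 of 41, 0 of 59 and 0 of 50 in WT replicates 1, 2 and 3. Counts of 0 there allow shares of up to 5.08% to 8.11%. The reverse-strand cytosine of the same CpG, at 62866309, held 84.0%, 72.0% and 87.5% in KO replicates, against 69.4%, 87.0% and 100% in WT replicates. The difference of 83.3 points is the largest of the 91 CpGs in the Tet windows read on both strands in all libraries, and the next largest is 21.7 points. The forward cytosines of the 2 neighbouring CpGs, 62866261 and 62866302, read at nearly the same depth, averaged 88.9% and 80.4% over the 6 libraries. Whether the strands of 62866308 differ in methylation in the cells, or only in how they were read, was not tested.

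Idh2, which makes the 2-oxoglutarate that TET enzymes use, had the smallest p of the 18 tested pathway windows and was outside the naming rule, so it was chosen after its values were seen. It held 32.8%, 33.3% and 34.9% in KO replicates, against 27.8%, 26.1% and 26.7% in WT replicates over 141 positions. The difference was 6.82 points without overlap (quasi-binomial test, p = 0.000241, adjusted p = 0.172).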
